A study of Arabidopsis thaliana with 32 samples.

Results

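The comparison described here is that of sahh1 mutant seedlings of 7 days with sahh1 mutant seedlings of 4 days. It uses 8 of the 32 arrays of the series, the 4 sahh1 arrays of each of these ages, as the labels of genotype and age assign them. The series measured whole seedlings of Arabidopsis thaliana, sahh1 or Columbia wild type, at 1, 4, 7 and 10 days, with 4 single-colour NimbleGen arrays per genotype and age. The allele of sahh1, the growth conditions and the hour of harvest are not given in the sources used here. All sahh1 groups carry the same mutant label, and the 4 wild-type arrays of day 7 and the 4 of day 4 serve as the comparison without it. The table holds 30385 loci with 1 value each per array.

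SAHH1 encodes S-adenosylhomocysteine hydrolase. Methyltransferases that use S-adenosylmethionine release S-adenosylhomocysteine, which inhibits them, and the hydrolase removes it, so the enzyme is needed for methylation of DNA, histones, RNA and small molecules. Between the ages compared, an Arabidopsis seedling moves from newly opened cotyledons living partly on seed reserves to the first leaves and a photosynthetic supply, while the root goes on to elongate and to form hairs.

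The transcript of SAHH1 itself (listed as HOG1 in the reference, locus AT4G13940) was the first check. Its log2 level in the sahh1 samples was 13.79 and 14.54 at day 4 and 14.82 and 14.64 at day 7. In wild type it was 15.24 and 15.29 at day 4 and 15.48 and 15.36 at day 7, above every sahh1 sample. Within sahh1 the change with age was 0.57 ± 0.21 (SE, adjusted p = 0.1, limma) and did not pass the test. Its homologue SAHH2 stood at 13.98 and 13.61 at day 4 and at 13.71 and 13.76 at day 7 (adjusted p = 0.844). Where the probes lie relative to the mutation is not known here, so this signal checks the label only in part.

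Arrays 1 and 2 of a group resembled each other more than they resembled arrays 3 and 4, and the reverse, at every age. Each pair was averaged and is called sample 1 or sample 2, which makes 2 samples in each group. Whether these came from separate cultures is not given in the labels, and p values measure only the spread between them. The 2 samples of sahh1 at day 4 differed from each other more than those of any other group. The SD of the difference between them over the 15192 loci above the median level was 0.635 log2, against 0.152 to 0.348 in the other 7 groups, and the 2 arrays within a pair differed by 0.192 and 0.325. Sample 1 of day 4 correlated at r = 0.903 with sample 2 of its own group and at 0.935 with sample 2 of sahh1 day 7. Sample 2 of day 4 correlated at 0.899 and 0.890 with the day 7 samples. With the wild-type samples of day 4, sample 2 correlated at 0.962 and 0.961 and sample 1 at 0.927 and 0.913. A locus is therefore described as changed from both only if it passed the test, if the mean of day 7 lay at least 1 log2 (2-fold) from each day 4 sample in the same direction, and if the 4 arrays of day 7 did not overlap the 4 of day 4.

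Array medians also followed age. The median deposited intensity was 449 to 493 on the sahh1 arrays of day 4 and 1880 to 1945 on those of day 7, and in wild type it was 460 to 470 and 1793 to 1923. Levels were therefore set on one distribution by quantile normalization over all arrays. What the seedling's age and what the normalization or hybridisation by age contributed cannot be told apart. In whole seedlings, fewer cells of a type and less RNA per cell cannot be told apart either. The labelled tissue was checked with markers. RBCS1A, the small subunit of Rubisco, stood at 15.85 and 15.83 at day 4 and at 15.85 and 15.85 at day 7, close to the scanner's ceiling of 16. CASP1 of the root endodermis was at 13.47 and 14.35 and then at 13.62 and 13.11. The floral genes AG and AP3 were between 4.57 and 5.97 in these 4 samples, near the limit of 5.56 under which the dimmest 25% of all loci lie. The list of 6 floral genes had higher means, 6.2 and 6.5 at day 4 and 6.8 and 6.6 at day 7. PI was the 1 of the 6 called higher at day 7. It lost the call with median centring (adjusted p = 0.605) and with scaling to reference genes (adjusted p = 0.128).

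At day 7, 1739 loci were called higher than at day 4 (5.72% of all loci tested) and 1787 were called lower (5.88%). Higher than both day 4 samples were 405 loci (1.33%), and lower than both were 453 (1.49%). These shares are the background for the list counts below. These calls rest on a spread pooled over all 8 groups. When only the 4 sahh1 samples compared were fitted, 0 loci were called by limma, and the lowest adjusted p was 0.111. At an unadjusted p under 0.05, 1614 loci were higher and 1663 lower (3277 of 30385). Among them were 847 of the 858 changed from both. The 858 were chosen for their separation in these same samples, so this overlap is no further support. With weights that let each group have its own spread, 39 loci were called, 17 higher and 22 lower, and all 39 are among the 858. Without sample 1 of day 4 the calls rose to 5359 and 6256. Without sample 1 or sample 2 of day 7 they fell to 366 and 525 higher and to 505 and 519 lower.

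The balance of higher and lower calls depended on the scaling. Of the called loci 49.3% were higher after quantile normalization and 48.1% after cyclic loess, but 8.98% with deposited values centred on each array's median and 29.6% after scaling to reference genes. The median change over all loci was -0.01 in the main scaling, -0.01 with cyclic loess, -0.58 with median centring and -0.16 with reference genes. Of the 88 loci chosen by the naming rule, none of the 78 that were called changed direction under these scalings. Of 143 called members of the gene lists used below, 0 changed direction with cyclic loess, 11 with median centring and 6 with reference genes, and all of these had been called higher.

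**Figure D1:**
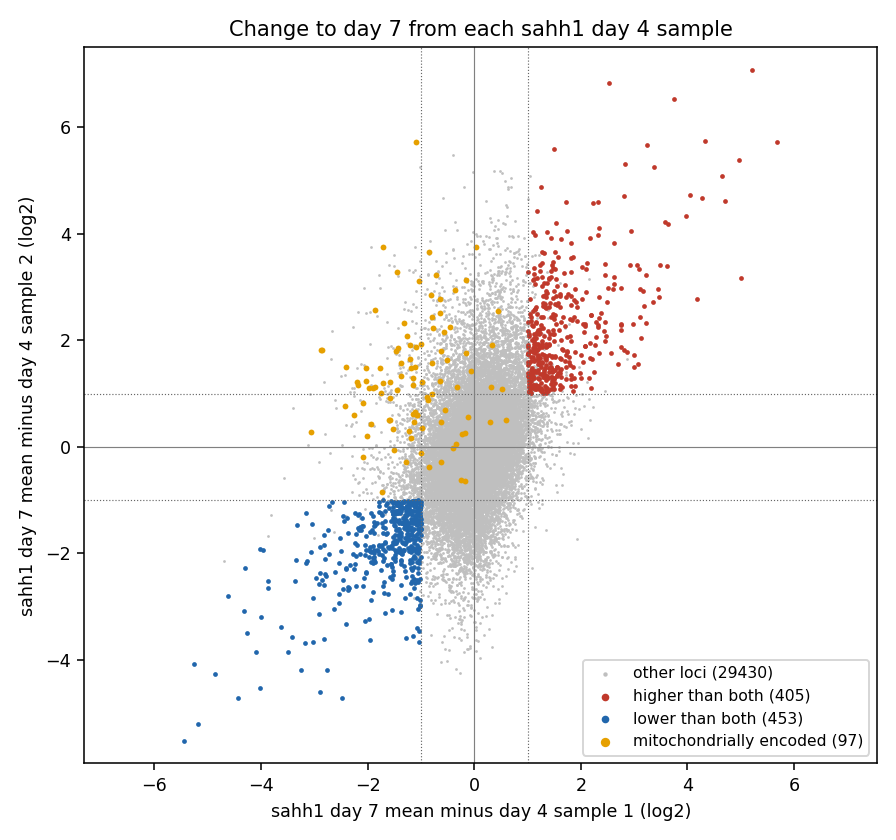
Each point is a locus, with the mean of the sahh1 day 7 samples minus day 4 sample 1 on the horizontal axis and minus day 4 sample 2 on the vertical axis, both in log2. The 405 loci higher and the 453 lower than both samples lie beyond 1 on both axes, while many of the 97 mitochondrially encoded loci lie below 0 on one axis and above 0 on the other.

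The 2 day 4 samples did not give the same list. All 3526 called loci had the same sign against both, but 1169 of them reached 1 log2 against only one sample and 1465 against neither. Over all loci the differences from sample 1 and from sample 2 correlated at r = 0.387 (n = 30385 loci, which share the day 7 mean and are no replicates). In all, 999 loci lay at least 1 log2 from both samples on the same side and 144 on opposite sides. Of these 144, sample 1 was above day 7 and sample 2 below it at 135, and 34 of those are mitochondrially encoded.

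The 10 named risers were headed by defence and water-stress genes. PDF1.2, a plant defensin induced by jasmonate and ethylene, had log2 levels of 4.54 and 4.50 at day 4 and 9.47 and 10.97 at day 7. The difference was 5.70 ± 0.80 (SE, adjusted p = 0.0029). Its day 4 levels lay in the dimmest 25%, where the size of a change depends on the background. COR15B, a cold-regulated protein of the chloroplast stroma, went from 6.18 and 5.75 to 10.75 and 11.53, a change of 5.17 ± 0.34 (adjusted p = 6.05e-05). RAB18, a dehydrin induced by abscisic acid, went from 9.08 and 8.44 to 12.73 and 12.58, a change of 3.90 ± 0.24 (adjusted p = 5.69e-05). For all 3 genes every day 7 sample lay above every day 4 sample, as the rule that chose them requires.

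The other 7 risers have varied roles. DMP1, a membrane protein linked to senescence, was at 7.27 and 4.79 at day 4 and at 10.59 and 9.60 at day 7, so the day 4 samples themselves differed by more than 2 log2. TIM17-1, a subunit of the mitochondrial import machinery, rose by 2.94 ± 0.41 and EHB1, a C2-domain protein of bending responses, by 3.05 ± 0.55. PRXCA, a secreted peroxidase, rose by 2.58 ± 0.39. CDEF1, a cutinase, was at 11.62 and 11.55 at day 4 and at 14.12 and 13.81 at day 7, a change of 2.38 ± 0.15 (adjusted p = 6.05e-05). CAX3, a calcium and proton exchanger of the vacuole, was at 11.35 and 11.17 and then at 13.63 and 13.24, and rose by 2.17 ± 0.28. CORI3, a coronatine-induced lyase, was at 8.21 and 8.87 and then at 10.42 and 11.94, and rose by 2.64 ± 0.46 (adjusted p = 0.00701). Among these 10 genes COR15B, RAB18 and CDEF1 kept their call when each group had its own spread (adjusted p 0.0144, 0.00536 and 0.0125), and the other 7 did not. EHB1 also lost it without sample 1 of day 7 (adjusted p = 0.0713).

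4 loci without a symbol led the risers that carry none. AT3G05727 had the largest change of the named loci, from 8.35 and 6.48 at day 4 to 13.57 and 13.54 at day 7, or 6.14 ± 0.48 (adjusted p = 0.00015). AT4G22500 went from 11.49 and 11.12 to 15.68 and 15.22 and changed by 4.15 ± 0.20 (adjusted p = 6.78e-06). AT5G59330 and AT5G33370 rose by 5.03 ± 0.50 and 4.87 ± 0.42. With a spread of its own for each group the first 3 kept the call and AT5G33370 did not.

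The 10 named fallers were headed by FAMT, a methyltransferase of farnesoic acid that draws on S-adenosylmethionine. Its level was 10.47 and 10.55 at day 4 and 4.93 and 5.13 at day 7, a change of -5.48 ± 0.96 (adjusted p = 0.00714). The day 7 levels lay in the dimmest 25%, where the size depends on the background, and the call was lost without sample 1 of day 7 (adjusted p = 0.0529). LHCB2.3, a light-harvesting protein of photosystem II, went from 14.35 and 14.37 to 9.16 and 9.15, a change of -5.20 ± 0.48 (adjusted p = 0.000399). The samples of an age almost coincided and lay far from those of the other age. HSP17.6A and HSP17.6II, small heat shock proteins of the cytosol, changed by -4.57 ± 0.27 and -4.56 ± 0.22. CIPK20, a protein kinase of calcium signalling, fell from 13.25 and 12.47 to 9.63 and 8.33, by 3.88 log2 (SE 0.72). Without sample 2 of day 7 that change was -3.23 (adjusted p = 0.0706).

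ABCG40, an importer of abscisic acid, was at 11.62 and 11.36 at day 4 and at 7.68 and 8.30 at day 7, a change of -3.50 ± 0.34. CCA1, a morning transcription factor of the circadian clock, went from 12.34 and 11.54 to 8.52 and 8.16, a change of -3.60 ± 0.54. BBX28, a B-box protein that restrains light responses, changed by -3.43 ± 0.47, and BGAL7, a beta-galactosidase, by -3.35 ± 0.35. SQP2, a squalene epoxidase homologue, was at 11.10 and 10.91 and then at 8.12 and 8.04, a change of -2.92 ± 0.20 (adjusted p = 7.34e-05). With a spread of its own for each group, HSP17.6A, HSP17.6II and SQP2 kept the call and the other 7 fallers lost it. Of the 4 lowest loci without a symbol, AT1G53540 (-4.27 ± 0.29) and AT2G28780 (-3.50 ± 0.28) kept it, and AT3G55240 (-3.70 ± 0.51) and AT5G06980 (-3.26 ± 0.54) did not.

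**Figure D2:**
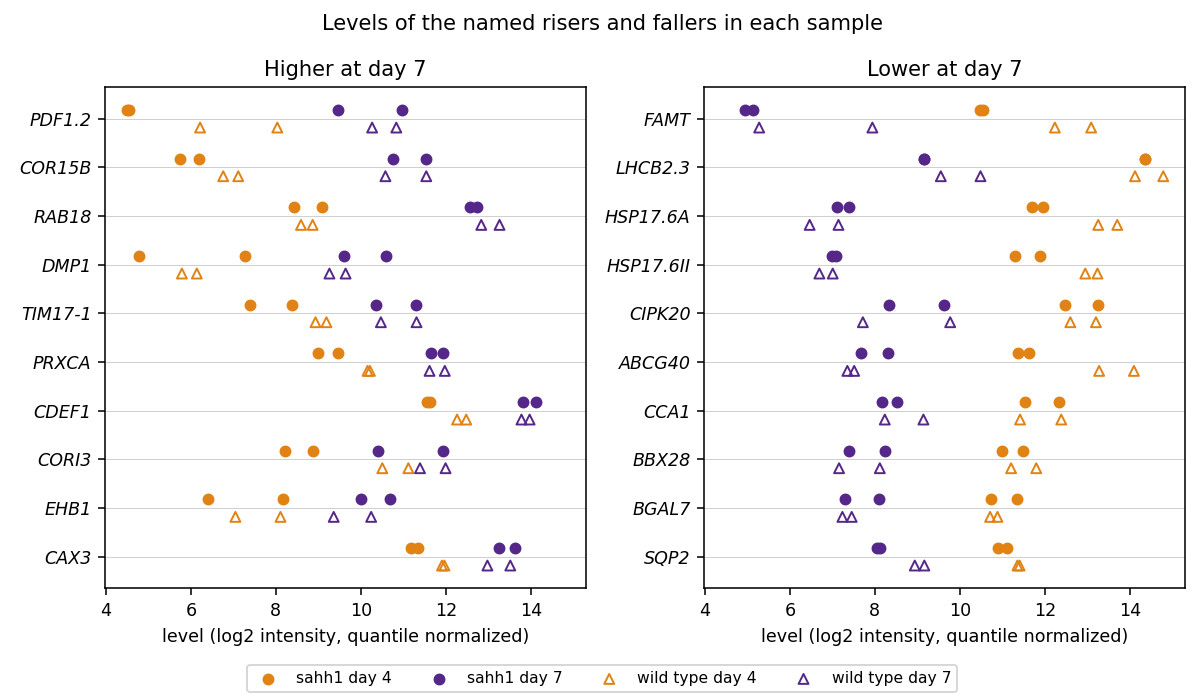
The log2 level of the 10 named risers and the 10 named fallers is shown for each sahh1 sample (filled circles) and each wild-type sample (open triangles), with day 4 in orange and day 7 in purple. The day 7 samples of sahh1 lie on one side of the day 4 samples for all 20 genes, as the naming rule requires, and the wild-type samples lie in the same order.

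Among the loci changed from both, pseudogenes made up 42 of the 405 risers (10.4%), near their share of 12.6% of all loci. They made up 5 of the 453 fallers (1.1%). Of the 42, 32 (76.2%) were also called higher in wild type, with a median change of 1.94 there and 1.73 in sahh1. Relative to all loci, the median change of the 3827 pseudogenes was 0.00, and -1.52 with median centring or reference genes. None of the 42 had a brighter age above the median level of all loci. At day 4, 91 of the 405 risers (22.5%) had a level among the dimmest 25%, and at day 7, 52 of the 453 fallers (11.5%) did. The table has no detection call, so at such loci the size of a change depends on the background. Among the genes named below this applies to LHCB2.2, HSP21, SESA3 and ACS4, dim at day 7, and to PDF1.2b and COR15A, dim at day 4, among others. At least 4-fold from both day 4 samples were 74 risers and 65 fallers.

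Small heat shock proteins are chaperones that bind unfolding proteins, and the heat shock list also holds larger chaperones and a regulator. Of 16 heat shock genes measured, 8 were called lower and none higher, 7 were lower than both day 4 samples, and the median change was -1.11 against -0.01 over all loci. The 7 make up 43.8% of the list, against 1.49% of all loci. HSP17.6A went from 11.69 and 11.96 at day 4 to 7.39 and 7.11 at day 7, and HSP17.6II from 11.89 and 11.29 to 6.98 and 7.08. HSP23.6-MITO of the mitochondrion went from 9.07 and 9.42 to 5.71 and 5.43, and HSP21 of the chloroplast from 7.25 and 7.46 to 4.43 and 4.23. ATHSP22.0 of the endoplasmic reticulum changed by -3.48 ± 0.43. AT1G07400 and AT1G53540 changed by -3.19 ± 0.36 and -4.27 ± 0.29. The 2 samples of an age were closer to each other than to any sample of the other age for each of the 4 genes given with levels. These genes were chosen for ages that do not overlap, so this closeness is no separate support. The count of 7 was 9 without sample 1 and 7 without sample 2 of day 4, and 7 and 8 without a sample of day 7. 6 of the 7 kept the call with array weights by group.

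The larger chaperones did not pass the test. Nor did all small heat shock genes, since only 8 of the list's 16 members were called. Besides the genes above, the list holds the small heat shock genes HSP17.4, HSP18.2, AT5G37670, AT5G51440 and AT1G52560. HSP101, which resolves aggregates, changed by -0.32 ± 0.35, HSP70 by -0.21 ± 0.24 and HSP90.1 by -0.32 ± 0.20. HSFA2, a heat-inducible transcription factor, stood at 10.14 and 6.66 in the day 4 samples and at 8.87 and 9.99 at day 7, so that day 7 lay between the day 4 samples. The probes of near-identical genes such as HSP17.6A and HSP17.6II, the LHCB2 genes, PDF1.2 and PDF1.2b, or COR15A and COR15B may share signal, which makes the value of a single copy uncertain.

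Root hair genes form the wall of the tip-growing hair or control its outgrowth. Of 37, 19 were called lower and 1 higher, 17 were lower than both day 4 samples, and the median change was -1.21. Lower than both were thus 45.9% of the list, against 1.49% of all loci. EXT12, an extensin, went from 14.42 and 14.06 at day 4 to 11.76 and 11.50 at day 7 (-2.61 ± 0.21, adjusted p = 0.000161). PRP3, a proline-rich wall protein, went from 11.88 and 12.19 to 9.82 and 9.25, and LRX1, a leucine-rich repeat extensin, from 11.50 and 11.89 to 9.25 and 9.31. RHS19, a peroxidase, went from 8.69 and 10.35 to 7.16 and 6.28. EXPA7, an expansin, went from 9.77 and 10.16 to 9.13 and 8.37. In each of these 5 genes all day 7 samples were below all day 4 samples. For members counted as lower than both, the rule itself requires this order.

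Regulators of hair growth were divided. RSL4, which sets hair length, was at 8.05 and 10.37 at day 4 and at 7.43 and 6.53 at day 7, a change of -2.23 ± 0.57. RHD6, which acts before it, was at 6.84 and 6.39 and then at 6.69 and 6.47, a change of -0.04 ± 0.33 that did not pass the test. ROP2, a GTPase of the hair initiation site, was the member called higher (1.06 ± 0.25). The count rested on the samples: 24 of the 37 were lower without sample 1 of day 4, 8 without sample 2, 12 without sample 1 of day 7 and 3 without sample 2. With array weights by group EXT12 alone kept its call. RHS19 lost its call without sample 2 of day 7 (adjusted p = 0.0797). Of the genes that pattern the root epidermis, 2 of 11 were lower than both, TRY (-1.42 ± 0.21), an inhibitor of trichome and of non-hair cell fate, and JKD (-1.40 ± 0.19), a zinc finger protein of position signalling.

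Genes of the root tip and endodermis depended on the day 4 sample. The median change of the 15 members was -0.09 against sample 1 and -1.18 against sample 2. MYB36, which switches on the Casparian strip, was at 10.47 and 11.14 at day 4 and at 9.52 and 9.13 at day 7 (-1.47 ± 0.22). CASP5, a scaffold protein of the strip, changed by -1.49 ± 0.40 (adjusted p = 0.0373). WOX5, a regulator of the quiescent centre, was at 7.87 and 5.21 at day 4 and at 9.37 and 9.11 at day 7, a rise of 2.70 ± 0.69 (adjusted p = 0.0322). WOX5 and CASP5 lost the call without sample 2 of day 4 (adjusted p 0.0974 and 0.157) and without either sample of day 7.

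Clock genes keep daily time. Of 18, 7 were called lower and 2 higher (ELF4 and GRP7), 6 were lower and 1 higher than both day 4 samples, and the median change was -1.24. Those 6 are 33.3% of the list, against 1.49% of all loci. CCA1 is given above. Its partner LHY went from 11.21 and 10.50 at day 4 to 8.51 and 8.47 at day 7 (-2.37 ± 0.27). PRR7, a repressor of both, went from 15.15 and 14.45 to 13.41 and 13.02, and GI, an afternoon regulator, from 13.03 and 13.34 to 11.45 and 10.54. AT3G54500 and AT5G64170 changed by -2.67 ± 0.36 and -2.73 ± 0.55. ELF4, an evening repressor, was higher, from 12.12 and 12.48 to 13.91 and 13.22 (1.27 ± 0.29). TOC1, another evening gene, changed by 0.55 ± 0.16 (adjusted p = 0.054) and did not pass the test. GRP7, an RNA-binding protein under clock control, changed by 0.60 ± 0.16, but by -1.03 with median centring and -0.60 with reference genes. Without sample 2 of day 7, 3 members were lower than both and the call of GI was lost (adjusted p = 0.0741). AT5G64170 lost its call without either sample of day 7 (adjusted p 0.051 and 0.0863), and no clock member lower than both day 4 samples kept it with array weights by group.

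**Figure D3:**
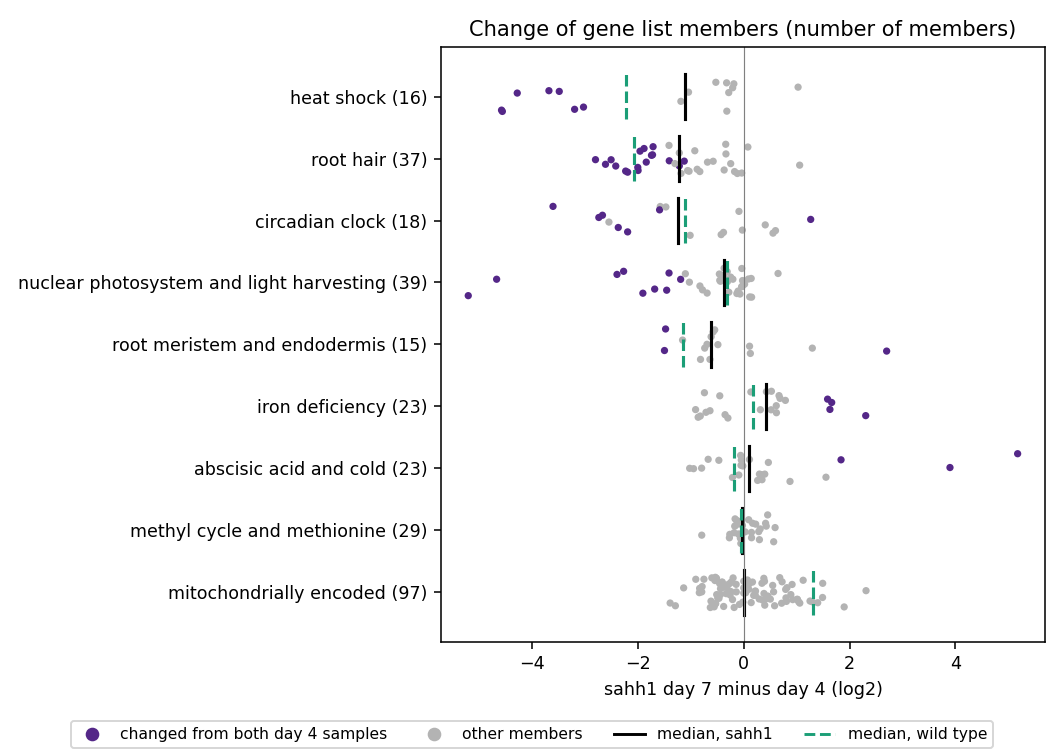
Each point is a list member, placed by its change in sahh1 from day 4 to day 7 in log2, with purple for members changed from both day 4 samples. Black bars give the list's median in sahh1 and dashed green bars its median in wild type, and the bars of heat shock and root hair lie furthest below 0 in wild type.

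Nuclear genes of the photosystems were lower mainly among the antenna proteins that bind chlorophyll. Of 39, 14 were called lower and none higher, and 9 were lower than both day 4 samples, all 9 of them light-harvesting proteins of photosystem II. Those 9 are 23.1% of the list, against 1.49% of all loci. LHCB2.2 changed by -4.66 ± 0.72 and LHCB2.1 by -2.27 ± 0.32. LHCB3 went from 15.47 and 15.52 at day 4 to 13.58 and 13.61 at day 7, and LHCB6 from 14.98 and 15.29 to 13.55 and 13.90. The photosystem I gene PSAG changed by 0.00 ± 0.12 and the plastocyanin gene DRT112 by 0.14 ± 0.14, and neither passed the test. The list's median change was -0.37, or -0.36 relative to the median of all loci, and -1.29 relative to it with median-centred values, where 32 members were lower than both. Without 1 of the 4 samples 8 to 10 were lower than both, and with array weights by group no member kept its call. In chlorophyll synthesis CH1, which makes chlorophyll b, was lower than both (-1.79 ± 0.30), and 4 of 12 genes were called lower, against 5.88% of all loci. In carbon fixation SBPASE, an enzyme of the Calvin cycle, was the 1 of 10 lower than both (-1.14 ± 0.14). The mean level of these 10 was 15.37 to 15.44 in the 4 sahh1 samples. That is close to the scanner's ceiling of 16, which limits the changes that can be seen. The median of these 2 lists also moved with the scaling. Relative to the median of all loci it was -0.37 for chlorophyll synthesis, -0.77 with cyclic loess and -0.96 with median centring or reference genes. For carbon fixation it was 0.01, -0.78 and -1.28.

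Reserve genes divided. ICL, isocitrate lyase of the glyoxylate cycle that turns seed oil into sugar, went from 13.26 and 13.54 at day 4 to 11.69 and 11.48 at day 7 (-1.81 ± 0.27). It was the 1 member of 17 oil-mobilisation genes changed from both, and 4 others were called higher by under 1 log2 (LACS7, PKT3, AIM1 and CSY3). Of all loci 5.72% were called higher. With median centring LACS7, PKT3 and AIM1 were lower at day 7 (-0.31, -0.14 and -0.69), and with reference genes AIM1 was (-0.26). Of 23 seed storage and maturation genes 2 were higher than both and 2 lower (8.7% each), against 1.33% and 1.49% of all loci. PAP85, a vicilin-like storage protein, went from 6.22 and 6.88 to 10.08 and 9.30 (3.14 ± 0.43). SESA3, an albumin, went from 7.46 and 8.71 to 5.43 and 5.54 (-2.60 ± 0.32). OLEO1, an oil-body protein, changed by 1.42 ± 0.37 and DOG1, a dormancy regulator, by -2.24 ± 0.55. OLEO1 lost its call after cyclic loess (adjusted p = 0.235) and with median centring (adjusted p = 0.0835), and without sample 2 of day 4 or of day 7. DOG1 lost it after cyclic loess (adjusted p = 0.0809), and without sample 1 of day 4 (adjusted p = 0.0596) or sample 2 of day 7 (adjusted p = 0.177).

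In the iron deficiency list 3 transcription factors of the bHLH family and AT1G47400 were higher than both day 4 samples. Of 23 genes, 6 were called higher and 2 lower. The other 2 called higher, OPT3 and ZIF1, were lower with median centring (-0.72 and -0.41), and OPT3 also with reference genes (-0.29). BHLH101, a transcription factor induced by iron shortage, went from 10.46 and 9.65 at day 4 to 12.65 and 12.07 at day 7 (2.31 ± 0.38). Its relatives bHLH38 and BHLH100 rose by 1.66 ± 0.31 and 1.59 ± 0.35, and AT1G47400 by 1.63 ± 0.26. The bHLH genes bHLH39 (0.79 ± 0.26), PYE (0.43 ± 0.21) and FRU (-0.30 ± 0.21) did not pass the test. The transporter gene IRT1 changed by -0.91 ± 0.39 and the reductase gene FRO2 by -0.86 ± 0.36, and neither passed the test. FER1, the iron store ferritin, was called lower (-0.74 ± 0.15), but not with scaling to reference genes (adjusted p = 0.0507). Without sample 1 of day 7 only 1 member was higher than both, without sample 2 of day 7 there were 2, and with array weights by group there was none. After cyclic loess 2 remained.

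The abscisic acid and cold list held COR15B, RAB18 and COR15A, the 3 of 23 members higher than both, and without sample 1 of day 4 there were 5. With all samples the 3 are 13% of the list, against 1.33% of all loci. COR15A went from 5.10 and 5.20 at day 4 to 6.47 and 7.51 at day 7 (1.84 ± 0.48, adjusted p = 0.0349). It lost the call with median centring (adjusted p = 0.401), with scaling to reference genes (0.115), without sample 2 of day 4 (0.0772) and without either sample of day 7 (0.0548 and 0.21). Of the other members KIN2 stood 0.53 log2 below day 4 sample 1 at day 7 and 3.64 above sample 2, and ABI1, a phosphatase that damps the response, was called lower (-1.02 ± 0.28), but not with scaling to reference genes (adjusted p = 0.0575). Among 20 jasmonate genes PDF1.2 and PDF1.2b (3.51 ± 0.67) were higher than both and AOS, which starts jasmonate synthesis, was lower (-1.53 ± 0.33). Those are 10% and 5% of the list, against 1.33% and 1.49% of all loci. PDF1.2b lost the call without sample 2 of day 7 (adjusted p = 0.0754) and AOS without sample 1 (adjusted p = 0.121). In salicylic acid defence PR5 went from 8.79 and 9.15 to 11.26 and 10.86 (2.09 ± 0.25), EDS16, which makes the precursor of salicylic acid, changed by -1.28 ± 0.18, and the marker PR1 changed by 0.42 ± 0.24 and did not pass the test.

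Smaller groups gave single genes, where 1.33% of all loci were higher and 1.49% lower than both day 4 samples. DFR and LDOX, late enzymes of anthocyanin synthesis, were lower than both among 18 flavonoid genes (-2.50 ± 0.38 and -2.17 ± 0.44), and LDOX lost its call after cyclic loess (adjusted p = 0.0531). In phosphate starvation AT5G03545 (2.47 ± 0.55) and SPX3 (1.49 ± 0.40) were higher than both and RNS1, a ribonuclease, was lower (-1.55 ± 0.29). SPX3 lost its call under each of the 3 other scalings (adjusted p 0.0579, 0.403 and 0.112). CYP735A2, which makes trans-zeatin, was the 1 of 23 cytokinin genes changed from both (-1.53 ± 0.25), and ACS4 of ethylene synthesis changed by -1.85 ± 0.26. FAH1 of lignin synthesis changed by -1.29 ± 0.19, the glucosinolate oxygenase FMO GS-OX1 by 2.26 ± 0.53 and MAF5, a flowering repressor, by 1.40 ± 0.19. The aquaporin TIP2;3 went from 8.18 and 9.70 to 11.26 and 11.25 (2.31 ± 0.38). WUS, the stem cell regulator of the shoot, was at 5.43 and 5.88 and then at 4.28 and 4.21, levels in or near the dimmest 25%. Of the genes in this paragraph none kept its call with array weights by group. Without 1 of the 4 samples compared, SPX3, LDOX, FMO GS-OX1, AT5G03545 and RNS1 lost theirs.

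The methyl cycle itself did not stand out from all loci. Of its 29 genes none was called higher and 1 lower, the methionine synthase MS2 (-0.79 ± 0.22), against 5.72% and 5.88% of all loci. None was changed from both, and the median change was -0.02, against -0.01 over all loci. Of 11 other S-adenosylmethionine users none was called by limma (at an unadjusted p under 0.05, 1 was higher and 3 lower). In wild type 4 of the 11 were called lower, against 11.4% of all loci. The difference between the genotypes' changes was called at 0 of the 11. Among 25 genes of DNA methylation and silencing 2 were called higher and 3 lower, against the same 5.72% and 5.88% of all loci. CMT3, a DNA methyltransferase of CHG sites, was the 1 lower than both, at 13.35 and 13.31 at day 4 and at 12.30 and 12.31 at day 7 (-1.03 ± 0.14, adjusted p = 0.0027). IBM1, a histone demethylase gene whose transcript depends on its own methylation, was at 10.95 and 11.51 and then at 10.23 and 10.03 (-1.10 ± 0.19, adjusted p = 0.00738), and lay 0.83 log2 from day 4 sample 1. It lost the call without sample 2 of day 7 (adjusted p = 0.0583). Neither gene kept its call with array weights by group.

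Genes silenced by DNA methylation did not pass the test between these ages, with none of 12 called by limma (2 at an unadjusted p under 0.05). Of all loci 5.72% were called higher and 5.88% lower, and 9069 of 30385 had an unadjusted p under 0.05. With only 12 members, a count of 0 does not set the list apart. Its median change relative to all loci was -0.06, 0.07 with cyclic loess and -1.16 with median centring or reference genes. QQS was at 10.69 and 10.89 at day 4 and at 10.39 and 10.60 at day 7 (adjusted p = 0.623). FWA was at 8.20 and 8.45 and then at 8.50 and 8.51 (adjusted p = 0.668). SDC was at 9.98 and 10.48 and then at 8.70 and 8.59, a change of -1.58 ± 0.56 (adjusted p = 0.0915), with the samples of the ages apart. Of 34 genes of the mitotic cycle and DNA replication 1 was called higher and 1 lower. Of 20 genes of the stomatal line and leaf formation 1 was called higher and 2 lower. With 5.72% of all loci called higher and 5.88% lower, these counts do not set either list apart.

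Mitochondrially encoded transcripts separated the day 4 samples. Their mean log2 level over 97 loci was 10.78 in sample 1 and 8.38 in sample 2 of day 4, and 9.08 and 10.28 at day 7. The median difference of day 7 was -1.11 from sample 1 and 1.16 from sample 2, and 0 of the 97 were called by limma (4 at an unadjusted p under 0.05). For the 67 plastid-encoded loci the corresponding medians were -0.47 and 0.40, with 0 called (2 at an unadjusted p under 0.05). Of all loci 5.72% were called higher and 5.88% lower, and 9069 of 30385 had an unadjusted p under 0.05. In wild type the mean over the 97 mitochondrially encoded loci was 8.76 and 8.26 at day 4 and 9.36 and 10.33 at day 7. Their median change there was 1.31, against -0.02 over all loci. Of the 97, 14 were called higher in wild type, near the share of 10.9% of all loci, so this count does not set them apart. Sample 2 of sahh1 day 4 lay between the wild-type samples of day 4 and sample 1 lay above both. The part of these loci in the other differences between the day 4 samples was not tested.

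**Figure D4:**
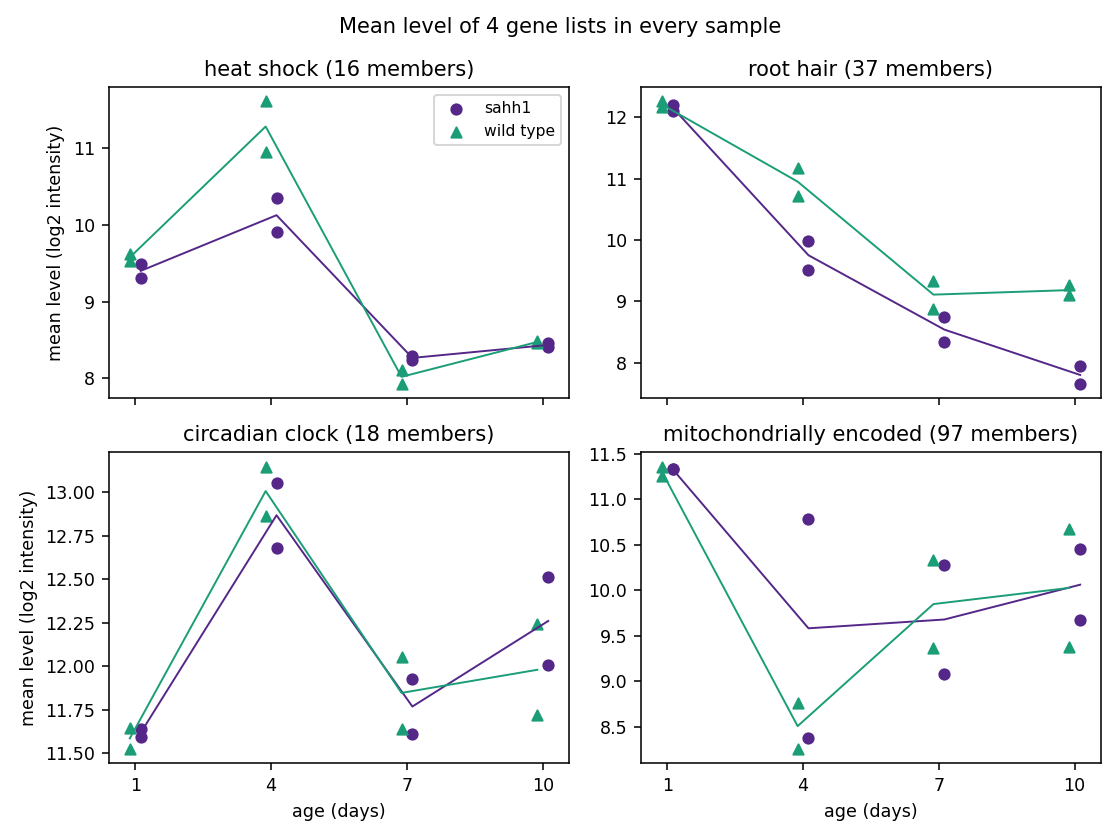
The mean log2 level of the members of 4 gene lists is plotted against age in days for each sample of sahh1 (circles) and wild type (triangles), with lines through the means. Heat shock and clock genes peak at day 4 in both genotypes, root hair genes are highest at day 1, and the mitochondrially encoded loci of sahh1 at day 4 lie at 10.78 and 8.38.

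Wild type over the same days gives the scale for sahh1. In wild type 3312 loci were called higher (10.9%) and 3457 lower (11.4%). Of the 405 risers of sahh1, 299 (73.8%) were called higher in wild type, 1 was called lower and 396 had the same sign. Of the 453 fallers, 394 (87.0%) were called lower in wild type, none was called higher and 451 had the same sign. The median change of the risers was 1.76 in sahh1 and 1.54 in wild type, and that of the fallers was -1.60 and -1.52. Over all loci the changes of the genotypes correlated at r = 0.701 (n = 30385 loci, whose samples share the normalization and the array levels of each age). Loci were chosen on the sahh1 change, so their sizes in sahh1 are not a test against wild type.

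The difference between the genotypes' changes was tested directly. It was called at 9 loci, higher in sahh1 at 7 (0.023% of loci tested) and lower at 2 (0.00658%), and 2837 loci had an unadjusted p under 0.05. None of the 9 has both a symbol and a level above the median of all loci, so they are named here after their values were seen. AT3G63380, the one among the 9 with a brighter age above the median, fell by 3.19 in wild type and stood at 10.92 and 11.07 at day 4 and at 10.12 and 10.13 at day 7 in sahh1. FLOT1, a flotillin of membrane domains, changed by 1.46 in sahh1 and by -2.28 in wild type. The count was 0 with array weights by group and 0 with the groups compared alone (1142 and 1550 at an unadjusted p under 0.05). It was also 0 with the sample number as a block (2783 at an unadjusted p under 0.05). With the numbers of sahh1 day 4 crossed, chosen after seeing the data, the count was 7. It was 0 without sample 2 of sahh1 day 7 or of wild-type day 7 and without either wild-type sample of day 1, 1 to 3 without the other day 7 samples or a sahh1 sample of day 10, and 31 and 105 without a wild-type sample of day 4. It was 2071 without sample 1 and 1962 without sample 2 of sahh1 day 4.

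Apart from AT2G21460, which is 1 of the 3827 pseudogenes, no member of a list was among the 9. The heat shock list had a median change of -1.11 in sahh1 and -2.21 in wild type, where 13 of 16 were called lower. Its members' levels at day 7 were alike, with list means of 8.24 and 8.29 in sahh1 and 8.11 and 7.92 in wild type, while at day 4 they were 10.35 and 9.91 in sahh1 and 11.61 and 10.96 in wild type. The differences of the changes for HSP17.6A and HSP17.6II were 2.1 (adjusted p = 0.0819) and 1.69 (adjusted p = 0.0886), so the genotypes' changes were not shown to differ. ABCG40 changed by -3.50 in sahh1 and -6.25 in wild type (adjusted p of the difference 0.0771). Root hair genes had medians of -1.21 and -2.07, with 32 of 37 called lower in wild type. Of the named loci, CORI3, TRY, TIP2;3 and WUS changed from both day 4 samples in sahh1 and were not called in wild type (0.88, -0.37, 0.40 and -0.35), and their differences did not pass the test either (adjusted p 0.417, 0.259, 0.256 and 0.255). The same held for FMO GS-OX1, AT5G03545 and SPX3, which changed by 1.51, 0.80 and 0.94 in wild type (adjusted p of the difference 0.826, 0.543 and 0.829).

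**Figure D5:**
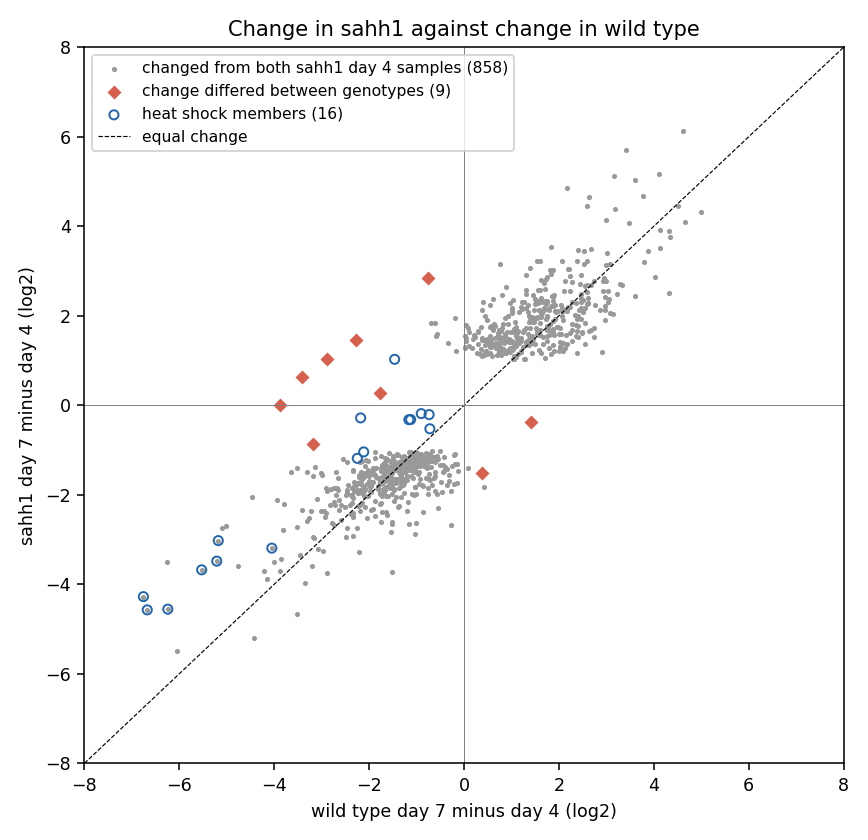
The change from day 4 to day 7 in sahh1 is plotted against that in wild type, both in log2, for the 858 loci changed from both sahh1 day 4 samples (grey), the 16 heat shock genes (circles) and the 9 loci whose changes differed between genotypes (diamonds). Most grey points lie near the dashed line of equal change, the 7 leading heat shock genes lie above it, and the diamonds lie away from it.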

How the data were processed

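The labels' protocols describe total RNA of whole seedlings, extracted with an RNeasy Plant Mini Kit, labelled with Cy3 and hybridised to NimbleGen arrays. The deposited values are linear normalized intensities, 1 for each locus of an array, made with RMA per the submitters' processing notes, with no version given. The authors' table names 30385 loci. Probe-level files and detection calls were not used here. The number of arrays limits the precision.

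Log2 was taken of the deposited intensity, and the 32 arrays were quantile normalized with limma 3.58.1 in R 4.3.3. Array pairs 1 and 2, and 3 and 4, were averaged into 16 samples. 1 mean per genotype and age was fitted with lmFit and eBayes (8 residual degrees of freedom, 2.54 prior degrees of freedom). The contrasts were day 7 minus day 4 in sahh1 and in wild type, and their difference. Adjustment was by Benjamini-Hochberg over the 30385 loci with a threshold of 0.05, and dim loci were kept. The fit was tested on simulated data.

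Symbols come from RefSeq, matched by locus tag for 29996 loci, of which 10357 have a symbol and 3827 are pseudogenes. Coordinates are not printed, since the table's genome build is not given in the sources used here. Of 640 list entries 634 were used; those dropped had a symbol that the reference gives otherwise, and NMT2 matched another enzyme. The members, lists and tests were chosen with earlier results of these data known. Besides the lists in the report, lists of auxin, gibberellin and ethylene synthesis, nitrate, sulfate, indolic glucosinolate and camalexin, xylem and flowering time genes were described.

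Named genes are the 10 highest and 10 lowest changed from both day 4 samples, with a symbol and a level at the brighter age above the median of all loci, ranked by the smaller difference from the day 4 samples. Added are 4 each way without a symbol, up to 4 such members per list, SAHH1, SAHH2, QQS, FWA, SDC and IBM1, members the counts turn on, and loci whose changes differed between genotypes. Alternatives were 3 other scalings, leaving out dim loci, array weights by group, a trend with a robust prior, only the groups compared, 32 arrays with and without the sample as a random block, the replicate block and leaving out each sample. Sample numbers were not taken as pairs: the differences between samples 1 and 2 correlated at 0.75 between the genotypes at day 7 but at -0.262 between sahh1 day 4 and day 7.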

Additional observations from a re-analysis of the deposited data

Results flagged for a closer look

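The changes from day 4 to day 7 differed between sahh1 and wild type by the test of the difference itself (limma, adjusted over all loci) at 9 loci. None of the 9 kept its call with the sample number as a block, where 0 loci were called (2783 at an unadjusted p under 0.05). With the numbers of sahh1 day 4 crossed, chosen after seeing the data, 7 loci were called. Sample numbers were not taken as pairs, so neither block is known to match the design. Changes are log2 differences, and 8 of the 9 loci were at or below the median level of all loci at both ages in sahh1. AT1G56060 changed by 0.01 in sahh1 and -3.88 in wild type, a difference of 3.89 (adjusted p = 0.0242). AT1G57630 changed by 0.64 and -3.41, a difference of 4.06 (adjusted p = 0.0350). SUC7, a sucrose transporter, changed by 1.04 and -2.88, a difference of 3.92 (adjusted p = 0.0473). FUT5, a fucosyltransferase, changed by 0.27 and -1.77, a difference of 2.04 (adjusted p = 0.0473). The pseudogene AT2G21460 changed by 2.84 and -0.75, a difference of 3.59 (adjusted p = 0.0242).

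AT3G63380 changed by -0.87 and -3.19, a difference of 2.32, and FLOT1 by 1.46 and -2.28, a difference of 3.74 (adjusted p = 0.0242 for both). For AT3G27835 (-1.50 in sahh1, 0.39 in wild type) and AT5G18710 (-0.37 and 1.42) the difference was -1.89 and -1.79 (adjusted p = 0.0242 for both). The sahh1 day 4 samples on which these differences rest were AT1G56060 at 7.34 and 6.54 and FLOT1 at 7.98 and 7.09. With array weights by group 0 loci were called (1142 at an unadjusted p under 0.05).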

How the results depend on the processing

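None of the 78 called loci of the naming rule reversed under any alternative run. Of 143 called list members, 11 reversed with median centring and 6 with scaling to reference genes, and 0 under each other alternative. For the calls higher, lower, higher than both and lower than both, array weights by group gave 17, 22, 17 and 22, and the groups compared alone gave 0 for each (3277 loci at an unadjusted p under 0.05). Median centring left 15710 lower, 220 higher than both and 9438 lower than both, and scaling to reference genes gave 4404, 10486, 620 and 7737. With 32 arrays as replicates 5520 were higher and 5100 lower, and with the sample as a random block 3149 and 2889. Leaving out 1 sample gave 366 to 5359 higher, 505 to 6256 lower, 228 to 2768 higher than both and 314 to 2826 lower than both. The highest values came without sahh1 day 4 sample 1, where "both" means the remaining sample, and a group left with 1 sample is assumed to vary like the others.

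Calls in wild type were 18063 with median centring, 19090 with reference genes, 2825 with the groups alone, 13231 with 32 arrays and 2974 to 11175 without 1 sample. The difference of changes was called at 23 loci with cyclic loess, 3 with reference genes, 5 with a trend and robust prior, 1470 with 32 arrays, 192 with the random block and 0 to 2071 without 1 sample. It was called at 0 with array weights, the groups alone and the replicate block (1142, 1550 and 2783 at an unadjusted p under 0.05). The replicate block gave 1536 higher and 1615 lower, and crossing the numbers of sahh1 day 4, chosen after seeing the data, gave 1571 and 1633. With the numbers crossed the difference of changes was called at 7 loci. The cause of these shifts was not tested.

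Of 78 named loci that were called, 14 kept the call with array weights by group and 24 lost it without 1 of the 4 samples compared. Levels near the scanner's ceiling or in the dimmest 25% limit the size of a change. The promoter motif search was not run, since no promoter sequences were given.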
